A study of Mus musculus with 6 samples.

Results

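Ikaros factors, E proteins, Id proteins and Bcl11a set the lymphoid programme of blood progenitors, and their transcripts were followed here in haematopoietic stem cells (HSC) from Lig4mut mice and their wild-type (WT) littermates. The genes are Ikzf1, Ikzf2 and Ikzf3, Tcf3, Tcf4 and Tcf12, Id1, Id2 and Id3, and Bcl11a. Members were the probe sets of the expression array whose platform annotation names exactly 1 of these 10 genes. There were 34 such probe sets of 34945 that name a single gene, for 10 of 18193 genes, and no probe set named a member together with another gene. Ikaros genes had 8 probe sets, E protein genes 14, Id genes 5 and Bcl11a 7. The mutant mice carried the Lig4mut genotype and the controls were Lig4+/+ littermates, both from crosses between Lig4mut/+ parents. HSC were sorted from bone marrow at 6 to 8 weeks of age as CD150+ CD48- KSL cells, with 3 biological replicates per genotype and 1 array each. The labels used here do not say what the mutation is, or how many mice went into a replicate.

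Ikaros (Ikzf1), Helios (Ikzf2) and Aiolos (Ikzf3) are zinc finger proteins that bind DNA and recruit chromatin remodelling complexes, and Ikaros is needed for lymphocyte development and for lymphoid priming of multipotent progenitors. E proteins are basic helix-loop-helix factors that pair with each other or with tissue-specific partners and bind E-boxes, sites with the letters CANNTG. Tcf3 encodes E12 and E47, Tcf4 encodes E2-2 and Tcf12 encodes HEB. Id proteins have the helix-loop-helix but no basic region, so a pair of an E protein with an Id protein does not bind DNA. Bcl11a is a zinc finger repressor required for B cell development and for the silencing of embryonic and fetal globin genes.

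The stretches just before the start sites of Tcf3, Bcl11a, Id2 and Id3 are shown as examples, because E proteins act through the E-box. RefSeq (GRCm38.p6) gave 1 window of 250 bases for each, written 5′ to 3′ on the gene's strand with any E-box (CANNTG, which reads the same on both strands) in capitals. They lie at chr10:80433636-80433885 on the minus strand for Tcf3, chr11:24080445-24080694 on the plus strand for Bcl11a, chr12:25096093-25096342 on the minus strand for Id2 and chr4:136143572-136143821 on the plus strand for Id3.
Tcf3: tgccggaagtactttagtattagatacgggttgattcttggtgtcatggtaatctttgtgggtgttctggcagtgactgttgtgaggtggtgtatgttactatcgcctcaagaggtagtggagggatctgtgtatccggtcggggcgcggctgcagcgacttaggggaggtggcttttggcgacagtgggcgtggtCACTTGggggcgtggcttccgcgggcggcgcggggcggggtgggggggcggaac
Bcl11a: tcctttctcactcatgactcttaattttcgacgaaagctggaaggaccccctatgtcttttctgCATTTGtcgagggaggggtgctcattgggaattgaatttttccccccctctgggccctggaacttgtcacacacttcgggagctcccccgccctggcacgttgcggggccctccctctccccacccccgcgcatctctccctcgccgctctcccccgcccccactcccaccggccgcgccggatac
Id2: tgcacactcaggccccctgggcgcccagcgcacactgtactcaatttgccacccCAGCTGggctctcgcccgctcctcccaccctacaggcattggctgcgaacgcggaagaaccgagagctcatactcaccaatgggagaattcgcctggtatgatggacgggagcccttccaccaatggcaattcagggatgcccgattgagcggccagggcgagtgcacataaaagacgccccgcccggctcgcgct
Id3: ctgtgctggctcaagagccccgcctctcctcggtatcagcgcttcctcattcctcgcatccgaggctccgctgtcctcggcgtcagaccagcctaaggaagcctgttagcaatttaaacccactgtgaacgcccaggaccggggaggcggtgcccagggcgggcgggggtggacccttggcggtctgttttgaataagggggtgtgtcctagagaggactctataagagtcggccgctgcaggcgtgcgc
The Tcf3 window held 1 E-box, CACTTG, at position -54 from the start site. Bcl11a held CATTTG at -186 and Id2 held CAGCTG at -196. Id3 held 0 in these 250 letters. Among all 32851 promoter windows of this length 66.2% held a CANNTG, beside 3 of these 4. Of the 10 genes, 6 had an entry in the promoter table.

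Values are log2 expression per probe set after quantile normalization over the 6 arrays, and a difference is Lig4mut minus WT with its standard error (SE) from limma. The 2 genotypes' deposited array medians lay between 5.97 and 6.05 in Lig4mut and between 6.29 and 6.34 in WT. Lig4, the gene that the genotype names, was at 4.97, 3.16 and 3.10 in Lig4mut replicates 1, 2 and 3, against 7.53, 6.66 and 7.63 in WT. Its difference was -3.53 ± 0.62 (SE, n = 3 per genotype, limma, adjusted p = 0.129). The mean level of 13 measured HSC markers was 9.37 to 10.04 in Lig4mut and 9.77 to 10.11 in WT, with none at the deposited floor of 3. Of these markers 6 were higher and 7 lower in Lig4mut. In 3, Meis1, Kit and Hlf, all Lig4mut arrays lay below all WT arrays, as in 7.13% of all probe sets (not 1 per gene). Their differences were -1.65 ± 0.42, -0.95 ± 0.26 and -1.44 ± 0.60. At an unadjusted p under 0.05 (limma) 2 markers were lower and 0 higher, where 4.03% and 15.8% of all genes were. Arrays stood apart on other cell markers. Of 12 granulocyte markers, 11 were highest in Lig4mut replicate 2, with list means of 6.03, 10.59 and 6.70 in Lig4mut replicates 1, 2 and 3 and 8.30, 7.24 and 7.47 in WT. Of 12 endothelial markers, 8 were lowest in WT replicate 1. After quantile normalization the means of 3 lymphoid lists were at 6.05 to 6.71 in Lig4mut and 5.75 to 5.82 in WT for B cell markers, 5.84 to 6.24 in Lig4mut and 5.58 to 5.80 in WT for T cell markers, and 4.82 to 5.24 in Lig4mut and 4.61 to 4.71 in WT for natural killer and innate lymphoid markers. In the values as deposited the genotypes overlapped for T cell markers, with 5.77 in Lig4mut replicate 1 and 5.89 in WT replicate 3, and for natural killer and innate lymphoid markers, with 4.71 in Lig4mut replicate 3 and 4.78 in WT replicate 3. Of these genes 7 of 11 and 8 of 10 were dim, below the 40th percentile of mean level. Plasmacytoid dendritic cell markers were at 7.04 to 7.33 in Lig4mut and 6.38 to 6.66 in WT, and macrophage and dendritic cell markers at 7.15 to 7.60 in Lig4mut and 6.35 to 6.97 in WT. Megakaryocyte markers were at 7.76 to 8.28 in Lig4mut and 7.33 to 7.85 in WT. Erythroid markers were at 5.71 to 5.90 in Lig4mut and 5.72 to 5.92 in WT. In RNA from a sorted population, fewer cells of a type and less RNA per cell cannot be told apart.

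No member probe set passed the threshold of 0.05 after Benjamini-Hochberg adjustment over all probe sets (limma, 0 of 34, smallest adjusted p = 0.13), where 0.00286% of all probe sets passed. That share is a single probe set of Klhl4. At an unadjusted p under 0.05, 4 members had higher values in Lig4mut and 2 lower, 11.8% and 5.88% of the 34, beside 12.2% and 5.3% of all probe sets tested, so the members' shares lay near the background. These were 2 probe sets of Tcf3 and 2 of Tcf4 on the higher side, and 2 of Bcl11a on the lower side, 17.6% of the members beside 17.5% of all probe sets in either direction. The 3 Lig4mut arrays did not overlap the 3 WT arrays in 7 members (20.6%, with 23.7% over all probe sets), 5 higher and 2 lower, where all probe sets gave 16.6% higher and 7.13% lower. The counts at an unadjusted p under 0.05 were 2 higher without Lig4mut replicate 2, 5 lower without Lig4mut replicate 1, 1 higher and 1 lower without WT replicate 1, and 1 lower without WT replicate 3. These counts stand without the shares of all probe sets in the same settings, so they are not read as a result about the members. In direction alone, 17 of the 34 were higher in Lig4mut and 17 lower, where 57.6% of all probe sets were higher and 42.4% lower, with a median difference of -0.04 beside 0.08 over all probe sets. The split was 13 to 21 in the values as deposited, 20 to 14 with arrays centred on their medians and 16 to 18 with cyclic loess.

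**Figure D1:**
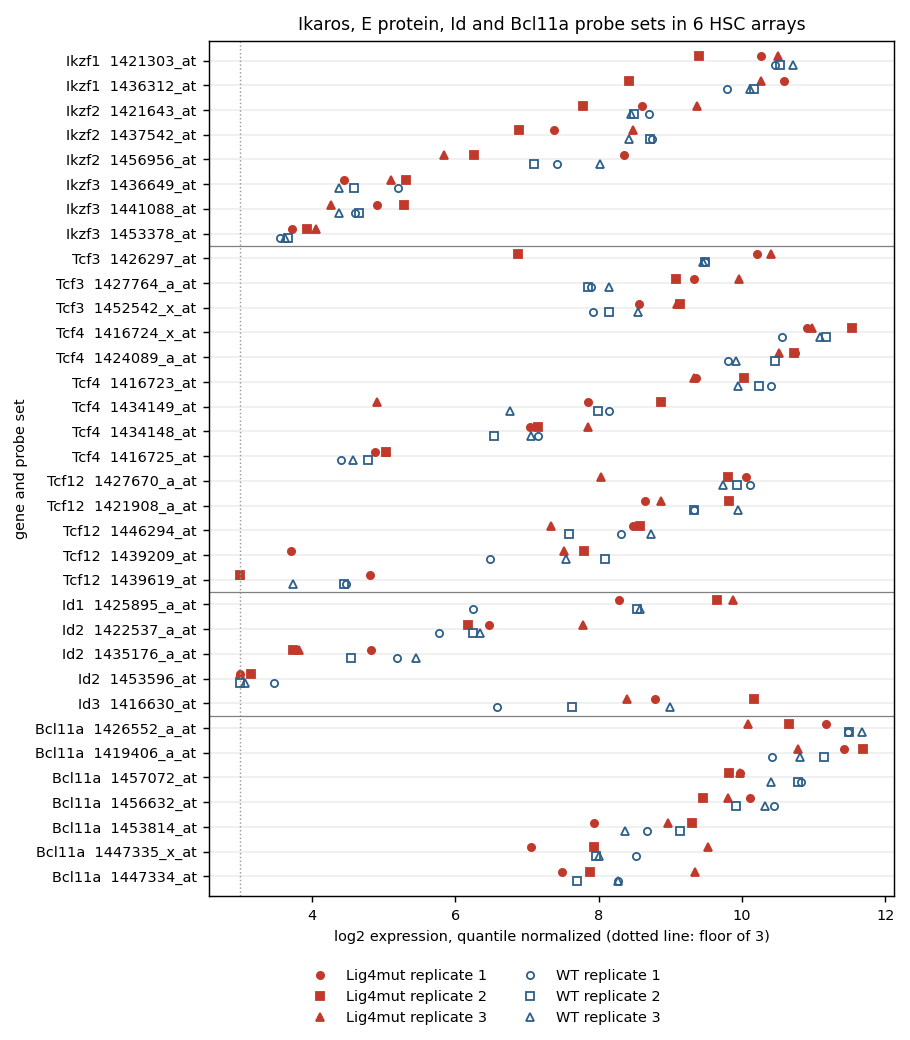
Levels of the 34 member probe sets (rows, grouped as Ikaros, E protein, Id and Bcl11a genes) in each array; the horizontal axis is the quantile-normalized log2 value, filled red symbols are the 3 Lig4mut arrays and open blue symbols the 3 WT arrays. In most rows the red symbols lie farther apart than the blue ones, with a Lig4mut SD above the WT SD in 27 of 34 probe sets.

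The Lig4mut arrays varied more among themselves than the WT arrays did. Over all probe sets tested, Lig4mut arrays correlated with each other at 0.844 to 0.861 and with WT arrays at 0.863 to 0.899. WT arrays correlated with each other at 0.940 to 0.950. The Lig4mut arrays were thus less alike among themselves than they were like the WT arrays. The SD between Lig4mut arrays was above that between WT arrays in 27 of 34 members, 79.4% beside 68.2% of all probe sets. The median SD of the members was 0.61 in Lig4mut and 0.31 in WT, and over all probe sets it was 0.48 in Lig4mut and 0.31 in WT. The intervals below use the same spread for both genotypes at each probe set, drawn towards that of the other probe sets by limma. They therefore average the larger Lig4mut spread with the WT spread and do not model the inequality.

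Ikaros genes gave no member with an unadjusted p under 0.05. Ikzf1, the founding member of the family, had 10.26, 9.41 and 10.51 in Lig4mut replicates 1, 2 and 3 at probe set 1421303_at, against 10.47, 10.54 and 10.71 in WT. The second Ikzf1 probe set, 1436312_at, had 10.58, 8.42 and 10.26 in Lig4mut, against 9.79, 10.17 and 10.11 in WT. Both were lowest in Lig4mut replicate 2, the array with the high granulocyte markers. At the first, Lig4mut replicate 3 lay among the WT arrays and replicate 1 just below them, and at the second both lay above all WT arrays. The differences were -0.51 ± 0.32 and -0.26 ± 0.62 (SE, n = 3 per genotype, limma, adjusted p = 0.476 and 0.874). Without Lig4mut replicate 2 they were -0.19 and 0.40, and with arrays centred on their medians -0.18 and 0.038. The part of the granulocyte transcripts in the Ikzf1 values was not tested.

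Helios, encoded by Ikzf2 and also made in HSC, had 3 probe sets that did not share a direction. Probe set 1437542_at had 7.37, 6.89 and 8.47 in Lig4mut, against 8.74, 8.71 and 8.42 in WT, so that 2 of 3 Lig4mut arrays lay below all WT arrays and the third lay among them. Its difference was -1.04 ± 0.44, with a 95% interval of -2.16 to 0.08 (limma, adjusted p = 0.313). Probe set 1456956_at had 8.35, 6.26 and 5.84 in Lig4mut, against 7.42, 7.10 and 8.01 in WT, with the highest and the lowest value of the 6 arrays both in Lig4mut. The brightest, 1421643_at, had 8.60, 7.78 and 9.37 in Lig4mut, against 8.70, 8.50 and 8.44 in WT, a difference of 0.04 ± 0.42. Aiolos, encoded by Ikzf3 and used in later lymphocytes, was dim throughout, with all 3 of its probe sets below the 40th percentile of mean level. Its values ran from 3.72 to 5.31 in Lig4mut and from 3.55 to 5.21 in WT. At 1453378_at the Lig4mut values of 3.72, 3.93 and 4.06 lay just above the WT values of 3.55, 3.66 and 3.62. That difference of 0.29 ± 0.13 was 0.11 in the values as deposited, and at such a level it lies close to the floor.

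Tcf3 had the E protein probe set with the largest difference between genotypes, under quantile normalization and the 3 other scalings run. At 1427764_a_at Tcf3 had 9.33, 9.07 and 9.96 in Lig4mut replicates 1, 2 and 3, against 7.90, 7.84 and 8.14 in WT. Every Lig4mut array lay above every WT array there, by a mean of 1.49 ± 0.26 or 2.82-fold (95% interval 0.81 to 2.17, limma, adjusted p = 0.13). At 1452542_x_at it had 8.57, 9.13 and 9.10 in Lig4mut, against 7.93, 8.14 and 8.55 in WT, again without overlap, although the lowest Lig4mut array and the highest WT array lay close together. The difference was 0.72 ± 0.25 or 1.65-fold (95% interval 0.09 to 1.36, adjusted p = 0.243). These 2 probe sets were designed from the same sequence record, so they are not independent measurements, and the x in the name marks probes that can also bind other transcripts.

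The third Tcf3 probe set, 1426297_at, did not show the difference. It had 10.20, 6.87 and 10.41 in Lig4mut, against 9.49, 9.48 and 9.46 in WT. Replicates 1 and 3 of Lig4mut lay above the tightly grouped WT arrays and replicate 2 lay far below them. The difference was -0.32 ± 1.03 over all arrays and 0.83 without Lig4mut replicate 2, so that array decides its sign. As the mean of its 3 probe sets Tcf3 differed by 0.63 ± 0.40, with the genotypes overlapping (limma, adjusted p = 0.414).

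**Figure D2:**
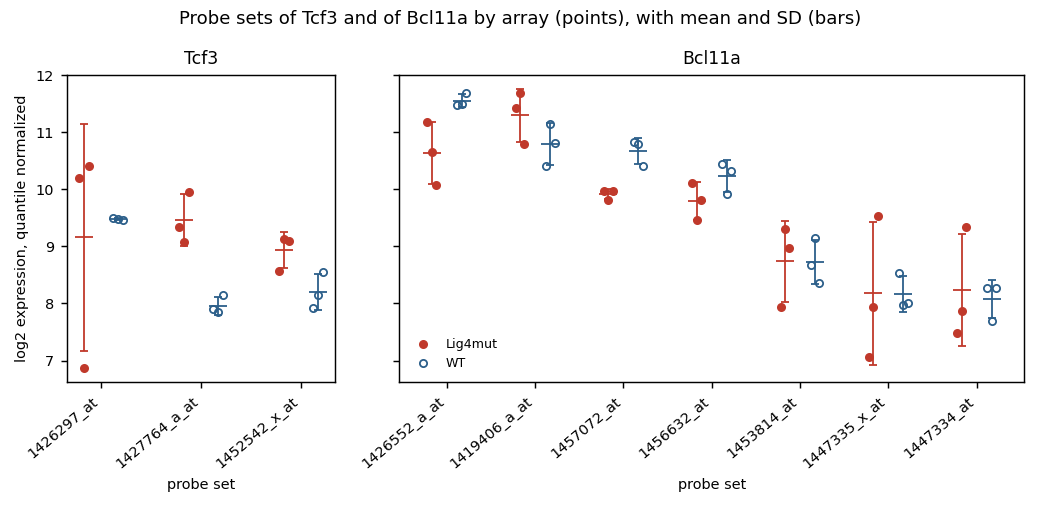
Quantile-normalized log2 values of the 3 Tcf3 and the 7 Bcl11a probe sets (horizontal axis, brightest first), with filled red points for Lig4mut arrays, open blue points for WT arrays, and the mean and SD of each genotype as bars (n = 3). Tcf3 is higher in Lig4mut at 1427764_a_at and 1452542_x_at and overlaps at 1426297_at, and Bcl11a is lower at 1426552_a_at and 1457072_at and overlaps at the other 5.

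Tcf4, whose product E2-2 is required for plasmacytoid dendritic cells, had 4 probe sets higher and 2 lower. At 1424089_a_at it had 10.74, 10.73 and 10.51 in Lig4mut, against 9.81, 10.46 and 9.92 in WT, with no overlap between genotypes. The difference was 0.60 ± 0.21 or 1.51-fold (95% interval 0.05 to 1.14, limma, adjusted p = 0.255). At 1416723_at the direction was the other way, with 9.35, 10.03 and 9.34 in Lig4mut, against 10.40, 10.24 and 9.94 in WT, and only Lig4mut replicate 2 among the WT values. That difference was -0.62 ± 0.25 (95% interval -1.27 to 0.03, adjusted p = 0.306), opposite in sign to the first. With arrays centred on their medians the differences were 0.94 at 1424089_a_at and -0.29 at 1416723_at.

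The dim Tcf4 probe set 1416725_at had 4.88, 5.04 and 5.04 in Lig4mut, against 4.41, 4.78 and 4.57 in WT, a difference of 0.40 ± 0.14 that was 0.14 in the values as deposited. The brightest, 1416724_x_at, differed by 0.20 ± 0.27 and 1434148_at by 0.43 ± 0.30, both with overlap. Probe set 1434149_at had 7.85, 8.87 and 4.90 in Lig4mut, against 8.14, 7.99 and 6.77 in WT. Its difference of -0.43 ± 1.13 was 0.72 without Lig4mut replicate 3. Probe sets 1434148_at and 1434149_at come from the same sequence record, so they are not independent measurements, though their differences had opposite signs. The mean over the 6 probe sets was 0.10 ± 0.23. Of 11 measured plasmacytoid dendritic cell markers, read at 1 probe set per gene, 10 were higher in Lig4mut and none was at the floor. Over all probe sets 57.6% were higher, and the like share at 1 probe set per gene is not given here. The median difference was 0.08 over all probe sets and 0.18 at 1 probe set per gene. At an unadjusted p under 0.05 (limma) 7 of these markers were higher, where 15.8% of all genes were. In the values as deposited 9 of the 11 were higher, with Spib at -0.13 and Tlr7 at -0.34. Siglech, a surface receptor of these cells, was at 7.08, 6.93 and 7.15 in Lig4mut, against 6.27, 6.17 and 6.34 in WT, a difference of 0.79 that was 0.50 in the values as deposited. Their part in the Tcf4 values was not tested.

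Tcf12, which encodes HEB and is best known from thymocyte development, was the E protein gene with all of its 5 probe sets lower in Lig4mut, and each overlapped between genotypes. With arrays centred on their medians 1446294_at was 0.10 higher instead. The brightest, 1427670_a_at, had 10.05, 9.80 and 8.03 in Lig4mut, against 10.11, 9.93 and 9.74 in WT. Here Lig4mut replicate 3 alone lay clearly lower, and without it the difference of -0.63 ± 0.58 was 0.0015. Probe set 1439209_at had 3.71, 7.79 and 7.51 in Lig4mut, against 6.49, 8.09 and 7.54 in WT, and its difference of -1.04 ± 1.25 was 0.28 without Lig4mut replicate 1. At 1421908_a_at the difference was -0.42 ± 0.38 and at 1446294_at -0.08 ± 0.47. Probe set 1439619_at sat at the floor on 2 of the 3 mutant arrays, while the third, at 4.81, lay above all WT arrays, and its difference was -0.62 ± 0.59. As the mean of its 5 probe sets Tcf12 had 7.14, 7.80 and 6.95 in Lig4mut, against 7.74, 7.88 and 7.94 in WT. That mean differed by -0.56 ± 0.25 (95% interval -1.19 to 0.07, limma, adjusted p = 0.281), with Lig4mut replicate 2 inside the WT range.

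**Figure D3:**
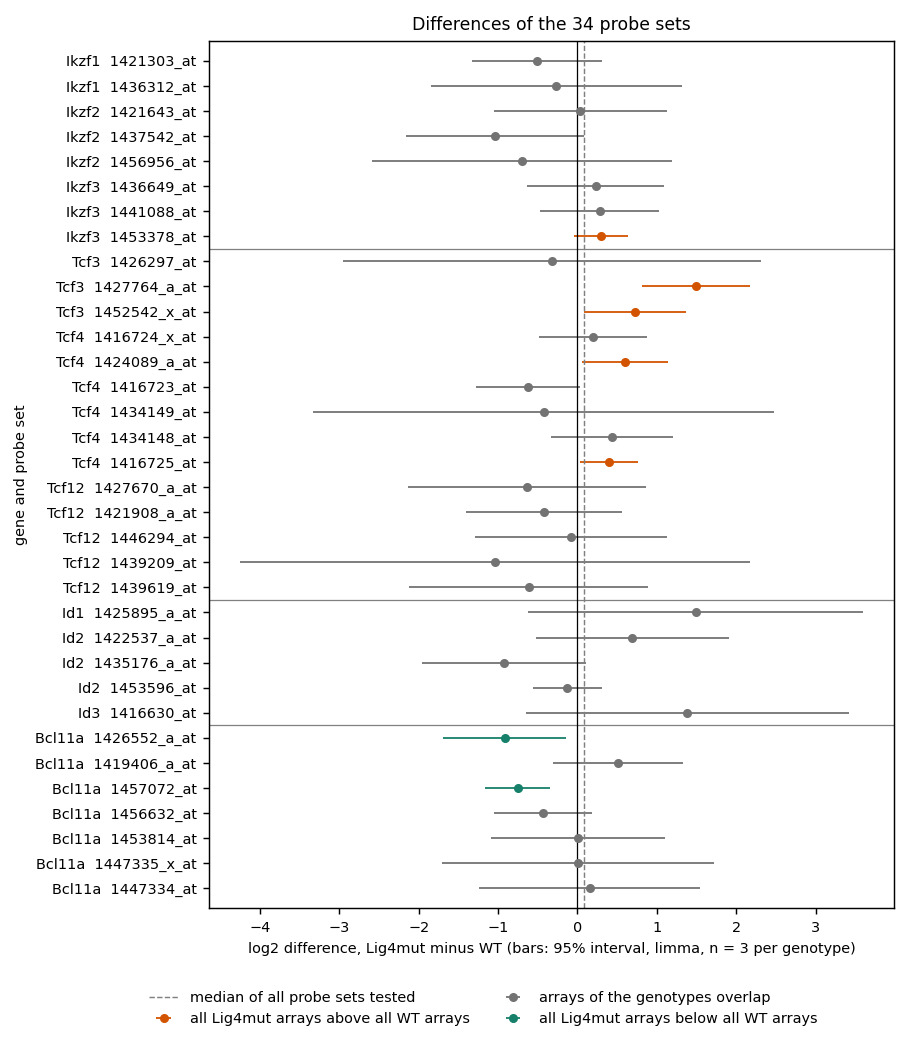
Log2 difference, Lig4mut minus WT, of the 34 member probe sets with 95% intervals from limma (n = 3 per genotype), coloured by whether the arrays of the genotypes overlap; the dashed line is the median of all probe sets tested, 0.08. Probe sets of Tcf4, Id2 and Bcl11a lie on both sides of 0, and the intervals of Id1 and Id3 reach across it.

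Id1 and Id3, inhibitors of E protein binding that are induced by bone morphogenetic proteins, had higher mean values in Lig4mut than in WT, with overlap between genotypes. Id1 had 8.29, 9.65 and 9.88 in Lig4mut replicates 1, 2 and 3, against 6.24, 8.53 and 8.58 in WT. WT replicate 1 was far below all other arrays, while Lig4mut replicate 1 lay just under WT replicates 2 and 3. The difference was 1.49 ± 0.82 or 2.80-fold, with a 95% interval of -0.63 to 3.60 (limma, adjusted p = 0.424). Id3 had 8.79, 10.17 and 8.39 in Lig4mut, against 6.58, 7.63 and 8.995 in WT, with 2 Lig4mut arrays under WT replicate 3. Its difference was 1.38 ± 0.79 or 2.61-fold, with an interval of -0.65 to 3.42 (adjusted p = 0.439). Without WT replicate 1 the differences were 0.72 for Id1 and 0.80 for Id3. Each of these genes has 1 probe set.

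WT replicate 1 was also the lowest array for 8 of 12 endothelial markers, cells in which Id1 and Id3 are expressed. The mean of that list was 9.80, 9.87 and 9.01 in Lig4mut replicates 1, 2 and 3, against 7.83, 9.06 and 9.50 in WT. Cdh5, which encodes the cadherin of endothelial junctions, was at 10.90, 11.57 and 10.64 in Lig4mut, against 6.80, 10.12 and 10.28 in WT. Pecam1 and Tie1 did not share that pattern, and WT replicate 1 was the highest WT array for both. Pecam1 was at 9.48, 8.30 and 8.79 in WT and Tie1 at 10.49, 9.68 and 10.12. Egfl7 was lower in Lig4mut, with a difference of -0.33 ± 0.22. No marker of the list was at the floor and 11 of the 12 were higher in Lig4mut, each read at 1 probe set per gene. Over all probe sets 57.6% were higher, with a median difference of 0.08, against a median of 0.18 at 1 probe set per gene. At an unadjusted p under 0.05 (limma) 1 marker was higher and 0 lower, where 15.8% and 4.03% of all genes were. In 2 markers all Lig4mut arrays lay above all WT arrays, as in 16.6% of all probe sets (not 1 per gene). Robo4 is in both this list and the HSC marker list, so the list does not set endothelial cells apart from HSC at every gene. The part of this list's transcripts in the Id1 and Id3 values was not tested.

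Id2, the member of the family needed for innate lymphoid and natural killer cells, gave no common direction. Its brightest probe set, 1422537_a_at, had 6.47, 6.18 and 7.78 in Lig4mut, against 5.77, 6.24 and 6.34 in WT, with Lig4mut replicate 3 as the high array. The dim 1435176_a_at had 4.82, 3.74 and 3.82 in Lig4mut, against 5.19, 4.54 and 5.44 in WT, with Lig4mut replicate 1 among the WT values. The differences were 0.69 ± 0.47 and -0.93 ± 0.40 (limma, adjusted p = 0.515 and 0.328). The first was 0.39 in the values as deposited and 0.21 without Lig4mut replicate 3. The third, 1453596_at, lay between 3 and 3.48 on all arrays, with 2 Lig4mut arrays and 1 WT array at the floor. Over its 3 probe sets Id2 differed by -0.12 ± 0.19.

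**Figure D4:**
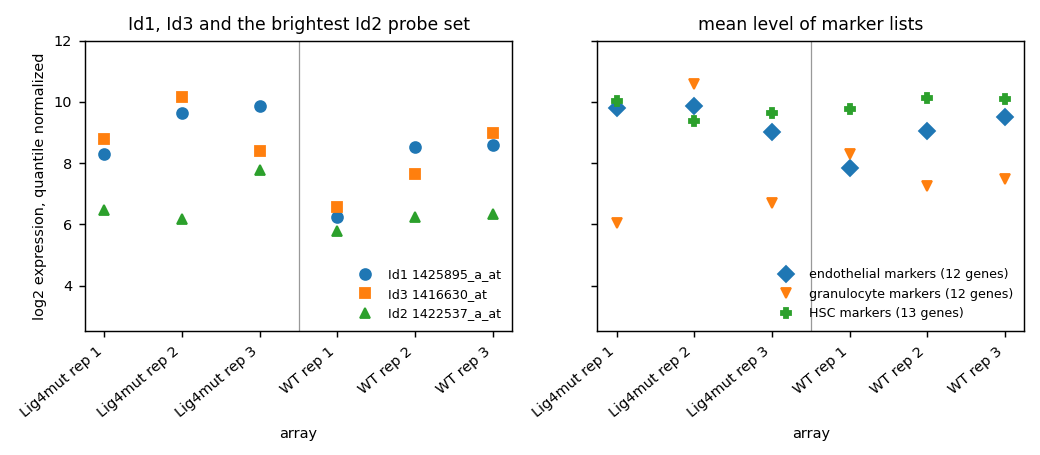
Quantile-normalized log2 values by array, Lig4mut on the left of each panel and WT on the right, for Id1, Id3 and the brightest Id2 probe set (left panel) and for the mean level of the endothelial, granulocyte and HSC marker lists (right panel). WT replicate 1 is lowest for Id1 at 6.24, for Id3 at 6.58 and for the endothelial list at 7.83, and Lig4mut replicate 2 is highest for the granulocyte list at 10.59.

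Bcl11a was the gene with the most probe sets and a split result. At 1457072_at it had 9.97, 9.81 and 9.97 in Lig4mut replicates 1, 2 and 3, against 10.82, 10.79 and 10.40 in WT. All Lig4mut arrays lay below all WT arrays, with a difference of -0.75 ± 0.16, 1.68-fold lower ( 95% interval -1.16 to -0.34, limma, adjusted p = 0.148). At 1426552_a_at, the brightest, it had 11.17, 10.65 and 10.08 in Lig4mut, against 11.48, 11.50 and 11.68 in WT, again with no overlap. The difference was -0.92 ± 0.30 or 1.89-fold lower (95% interval -1.69 to -0.14, adjusted p = 0.232). With arrays centred on their medians the differences were -0.42 at 1457072_at and -0.58 at 1426552_a_at, and neither had an unadjusted p under 0.05.

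The other Bcl11a probe sets overlapped between genotypes. At 1419406_a_at, nearly as bright, the values were 11.43, 11.69 and 10.78 in Lig4mut, against 10.41, 11.15 and 10.81 in WT, so 2 Lig4mut arrays lay above all WT arrays. The difference was 0.51 ± 0.32 (adjusted p = 0.478), and 0.86 with median centring, at an unadjusted p of 0.048 from limma. At 1456632_at it was -0.43 ± 0.24 with overlap. The remaining 1453814_at, 1447335_x_at and 1447334_at differed by 0.01 ± 0.43, 0.01 ± 0.67 and 0.15 ± 0.54, and the last 2 come from the same sequence record. Both of that pair were highest in Lig4mut replicate 3, at 9.53 and 9.34, and lowest in Lig4mut replicate 1, at 7.06 and 7.48. The mean over the 7 was -0.20 ± 0.15. Which Bcl11a transcripts each probe set reads was not analysed here.

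Genes around these factors in the same pathways were taken from 5 lists, 1 probe set per gene. None of the 78 measured genes had a probe set past the adjusted threshold (limma). The background at an unadjusted p under 0.05 was 15.8% higher and 4.03% lower over 18193 genes. Of 4 other family members, 1 was higher at that level, Bcl11b, the paralogue of Bcl11a needed for T cell commitment, by 0.82 ± 0.27. Ikzf4, encoding Eos, differed by -1.22 ± 0.71 with all 3 of its probe sets lower, and Id4 by 1.79 ± 1.39. Id4 had 9.46, 10.87 and 7.01 in Lig4mut, against 5.74, 9.38 and 6.85 in WT, lowest in WT replicate 1 as Id1 was.

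Of 15 basic helix-loop-helix partners and members of the LMO complex, 1 was higher and 1 lower at an unadjusted p under 0.05. The lower one was Tal1, a stem cell factor that binds DNA as a pair with an E protein. Tal1 had 7.98, 8.87 and 8.84 in Lig4mut, against 9.93, 10.16 and 10.77 in WT, with the genotypes apart by more than 1 unit on the log2 scale. Its difference was -1.73 ± 0.36 or 3.31-fold lower (limma, adjusted p = 0.141), and it has 1 probe set. Ascl2, another partner of E proteins, differed by 0.45 ± 0.12, and by 0.13 in the values as deposited, and Hey1 by 0.82 ± 0.51. The median of the list was -0.19, where all genes had 0.18.

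Of 20 chromatin partners of Ikaros and Bcl11a, among them the NuRD complex, 1 was higher and 3 lower, with a list median of -0.10. Gatad2b, a NuRD subunit, had 10.74, 10.25 and 10.87 in Lig4mut, against 11.58, 11.41 and 11.39 in WT, a difference of -0.84 ± 0.20 (limma, adjusted p = 0.16), though 3 of its 5 probe sets were higher. Mbd2, a reader of methylated DNA in the same complex, differed by 0.93 ± 0.28, with its other probe set lower, and Smarca4, the ATPase of the BAF complex, by -0.50 ± 0.16.

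Of 20 lymphoid priming genes measured, 3 were higher and 1 lower at an unadjusted p under 0.05, with a list median of 0.12. Lsp1, a cytoskeletal protein of leukocytes, had 10.12, 10.25 and 9.81 in Lig4mut, against 11.28, 10.70 and 10.81 in WT, a difference of -0.87 ± 0.22 (limma, adjusted p = 0.172). Il7r, the receptor chain of the lymphoid cytokine interleukin 7, was dim, with 4.21, 3.71 and 4.34 in Lig4mut, against 3.29, 3.05 and 3.53 in WT, a difference of 0.79 ± 0.23 (adjusted p = 0.203). Ccr7, a chemokine receptor of lymphocytes and also dim, differed by 0.45 ± 0.13, and by 0.23 in the values as deposited. Of 19 genes of the bone morphogenetic protein and related pathways that induce Id genes, 2 were higher and 0 lower, with a list median of 0.24. Those 2 were the receptor Bmpr1b, by 0.60 ± 0.19, and the signal transducer Smad9, by 0.55 ± 0.19, and the receptor Bmpr1a differed by 0.38 ± 0.16. All 3 were dim, and in the values as deposited their differences were 0.36, 0.23 and 0.08.

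Profiles over the 6 arrays were also compared between genes, each centred on its own mean, by the root mean square difference among 12328 genes with a range of at least 1. For Ikzf1 the nearest gene was Zfp91, at 0.065. For Tcf4 it was Hcrtr1, at 0.106, and for Id1 it was Mtss1, at 0.286, closely followed by Ushbp1 at 0.288. These are descriptions of 6 arrays that share 2 genotypes, and with so many genes compared near matches are found for most profiles.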

How the data were processed

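Whole-genome mouse expression arrays of 6 HSC samples were used. The authors deposited log2 expression values per probe set, and the submitters' processing notes name RMA without a version. Every array had a lowest value of 3, a floor whose origin no source used here states. Deposited array medians differed by more than 0.1, so the 45101 probe sets were quantile normalized over the 6 arrays. Probe sets were named by GEO's platform annotation, with 34741 symbols updated through NCBI's GRCm38.p6 gene table. Controls (64) and probe sets with several genes (932) or no entry (9160) were left out, and 34945 were tested. Lig4mut and WT, 3 arrays each, were compared with limma 3.58.1 in R 4.3.3 (lmFit, eBayes, two-sided, Benjamini-Hochberg over all probe sets, threshold 0.05). The procedure was tested on simulated normal values with the same spread in both genotypes and no floor. That test does not cover the unequal spread or the floor of these data. Each list gene was read at its brightest probe set, and the 3 genes of each pathway list with the smallest unadjusted p were named. Marker lists are given by counts and mean levels, and promoter windows are described without a test. The labels call the replicates biological without naming animals, so whether a sample is a single animal or a pool is not known. Each p-value sets a difference against the spread between these samples, as moderated by limma. An array has no sequencing depth, so the number of arrays limits the precision. Replicate numbers were checked for pairing: deviations of same-numbered arrays correlated at 0.043, 0.007 and -0.031, so the numbers were not taken as pairs. Alternatives were other scalings, 1 value per gene, a filter on dim probe sets, other variance models, array weights, the replicate number as a block, a threshold of 0.1 and leaving out each array. Members and lists were chosen with earlier results of these data known.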

Additional observations from a re-analysis of the deposited data

How the results depend on the processing

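No member probe set and no gene of the pathway lists passed the adjusted threshold under any alternative tried, which included each array left out in turn; at a threshold of 0.1 the count was also 0 (limma, with 4 higher and 2 lower members at an unadjusted p under 0.05). Over all probe sets, 1 passed, 2 in the values as deposited or with 1 probe set per gene, 5 at a threshold of 0.1, and 0 with the mean of probe sets, without dim probe sets, with array weights, with the replicate block or without any 1 array (limma, with 2603 to 7078 probe sets or genes at an unadjusted p under 0.05). Of all probe sets at an unadjusted p under 0.05, 69.7% were higher in Lig4mut, 42.2% in the values as deposited, 78.9% with arrays centred on medians and 51.9% with cyclic loess, and the median difference of all probe sets was 0.08, -0.04, 0.28 and 0.01. The 4 higher members at that level became 0 with 1 probe set per gene or the mean of probe sets, 1 without dim probe sets, and 2 with a variance trend or array weights, and ranged between 1 and 4 when single arrays were left out. The 2 lower members became 4 in the values as deposited or with array weights, 1 with 1 probe set per gene, and 0 with median centring or the mean of probe sets, and ranged between 1 and 5 when single arrays were left out. The background moved as well. Of all 34945 probe sets, 1853 were lower at that level in the main fit, 2553 in the values as deposited and 1346 with median centring. The probe sets higher at that level numbered 4253, 1864 and 5043 in the same settings. In either direction the share was 19.7% with 1 probe set per gene and 20.9% with the mean of probe sets, with 10 members tested. Without dim probe sets it was 12.4%, with 27 members tested. With the replicate number as a block the counts were 3 higher and 2 lower members. For that block, the variance trend, the array weights and the arrays left out, the share of all probe sets is not given here. None of these member counts is read as a result about the members. No member had passed in any setting, so no call could be lost, and the turns of sign below say nothing about passed differences. In the values as deposited Ikzf2 1421643_at was at -0.040, Ikzf3 1436649_at at -0.038, Bcl11a 1447335_x_at at -0.11 and Bcl11a 1453814_at at -0.037. With median centring Ikzf1 1436312_at was at 0.038, Tcf12 1446294_at at 0.10 and Id2 1453596_at at 0.13. Bcl11a 1447335_x_at was at -0.010 with cyclic loess and Bcl11a 1453814_at at -0.057 with array weights. As the mean of probe sets Ikzf2 was at -0.57, Id2 at -0.12 and Tcf3 at 0.63. Leaving out each array in turn, the ranges that crossed 0 were -0.40 to 0.53 for Bcl11a 1447334_at, -0.67 to 0.56 for 1447335_x_at, -0.27 to 0.41 for 1453814_at, -0.22 to 0.021 for Id2 1453596_at, -0.68 to 0.40 for Ikzf1 1436312_at, -0.36 to 0.44 for Ikzf2 1421643_at, -1.01 to 0.0015 for Tcf12 1427670_a_at, -1.77 to 0.28 for 1439209_at, -0.39 to 0.32 for 1446294_at, -0.94 to 0.83 for Tcf3 1426297_at and -1.26 to 0.72 for Tcf4 1434149_at. The cause of these turns was not tested. Signals near the floor of 3 limit the 3 Ikzf3 probe sets, 2 of Id2, Tcf12 1439619_at and Tcf4 1416725_at.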
